A study of Bos taurus with 52 samples.

Results

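The genes described here make, carry, sense and break down prostaglandins in the cow uterus and in the day 17 conceptus. They were chosen by name from a list of 10 genes: PTGS1, PTGS2, PTGES, PTGIS, PTGIR, PTGFR, PTGER4, HPGD, SLCO2A1 and ABCC4. Rows of those names were found for 9 of the 10 among the 31651 named genes of the count table, and ABCC4 is named only. The rule for membership uses the gene's name and no threshold on a measured value, but the list of names was drawn up with earlier results of these data known.

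RNA was sequenced from 25 endometrium samples and 27 conceptuses of Bos taurus heifers in 3 fertility classes, high fertile (HF), subfertile (SF) and infertile (IF). Endometrium is the lining of the uterus, and the conceptus is the embryo with its extraembryonic membranes. The endometrium fell into 5 groups of 5 animals: non-pregnant high fertile (NP-HF), non-pregnant subfertile (NP-SF), non-pregnant infertile (NP-IF), pregnant high fertile (P-HF) and pregnant subfertile (P-SF). Pregnant samples were from day 17. For non-pregnant endometrium the labels used here state no day, and pregnancy and day cannot be told apart if the days differed. The conceptuses fell into 3 groups: 10 long conceptuses of 10 high-fertile recipients (C-HF-long), 7 short conceptuses of 6 high-fertile recipients (C-HF-short) and 10 conceptuses of 7 subfertile recipients (C-SF). The 27 conceptuses came from 19 recipients in all, so that some shared a uterus. Lengths were given for 5 C-HF-long conceptuses (9 to 17 cm), 6 C-HF-short conceptuses (1.2 to 6.9 cm) and 9 C-SF conceptuses (from 1.5 cm up into the C-HF-long range). Whole pieces of tissue were sequenced, so fewer cells of a type and less RNA per cell cannot be told apart.

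Prostaglandins are short-lived lipid signals made from arachidonic acid, which phospholipases release from membranes. The cyclooxygenases, encoded by PTGS1 and PTGS2, turn it into prostaglandin H, and separate synthases turn that into prostaglandin E (PTGES), prostacyclin (PTGIS) or other products. The products act through G protein-coupled receptors on the cell surface, are taken up by the carrier SLCO2A1 and are inactivated by the dehydrogenase HPGD. In ruminants, prostaglandin F from the endometrium ends the life of the corpus luteum unless a conceptus is present, and prostaglandins from the elongating conceptus act on the endometrium.

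Library totals, rounded, ran from about 17077600 to 27292200 counts in the endometrium and from 20549500 to 46967000 counts in the conceptuses. No 2 libraries held identical counts. Levels are given as CPM, counts scaled to a common library size with the TMM factors of each tissue, and because CPM does not correct for gene length, levels of different genes were not compared. Summed trophoblast markers lay between 5.29 and 13.9 CPM in the endometrium and between 979.5 and 14952 CPM in the conceptuses, and the uterine genes HOXA10 and HOXA11 reached at most 0.259 and 0.185 CPM in a conceptus. Of the other 3 uterine markers, PGR and ESR1 reached 0.817 and 1.14 CPM, and OXTR reached 17.9 CPM in a C-SF conceptus, above its highest pregnant endometrium (10.1 CPM). The description fields of 22 conceptuses named another animal or length than the titles did. Groups follow the titles, which are also the column names. The 3 comparisons between conceptus groups were rerun with groups read from the descriptions, and calls lost there are given with each gene. The length slopes, the pairs within a uterus and the recipients with both tissues follow the titles only and were not rerun that way.

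In the endometrium of high-fertile heifers, pregnancy was accompanied by lower PTGIS, the prostacyclin synthase, and higher PTGIR, the prostacyclin receptor. PTGIR was higher in pregnant subfertile heifers as well. PTGER4, a prostaglandin E receptor, was lower in pregnant high-fertile heifers, at the edge of the threshold. The cyclooxygenases, HPGD and SLCO2A1 did not pass the test in either fertility class. The tests were edgeR quasi-likelihood fits, with p-values adjusted by Benjamini-Hochberg over all 19606 genes tested, and calls were made at an adjusted p under 0.05. In P-HF against NP-HF 1 of the 9 genes was called higher and 2 were called lower, where 20.8% of all genes were called (10.2% higher and 10.6% lower). In P-SF against NP-SF 1 of the 9 was called, higher, where 4.07% of all genes were called (3.18% higher and 0.887% lower). The median log2 fold change of the 9 genes was -0.05 in high-fertile and 0.18 in subfertile heifers, against -0.01 over all genes tested in each.

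**Figure D1:**
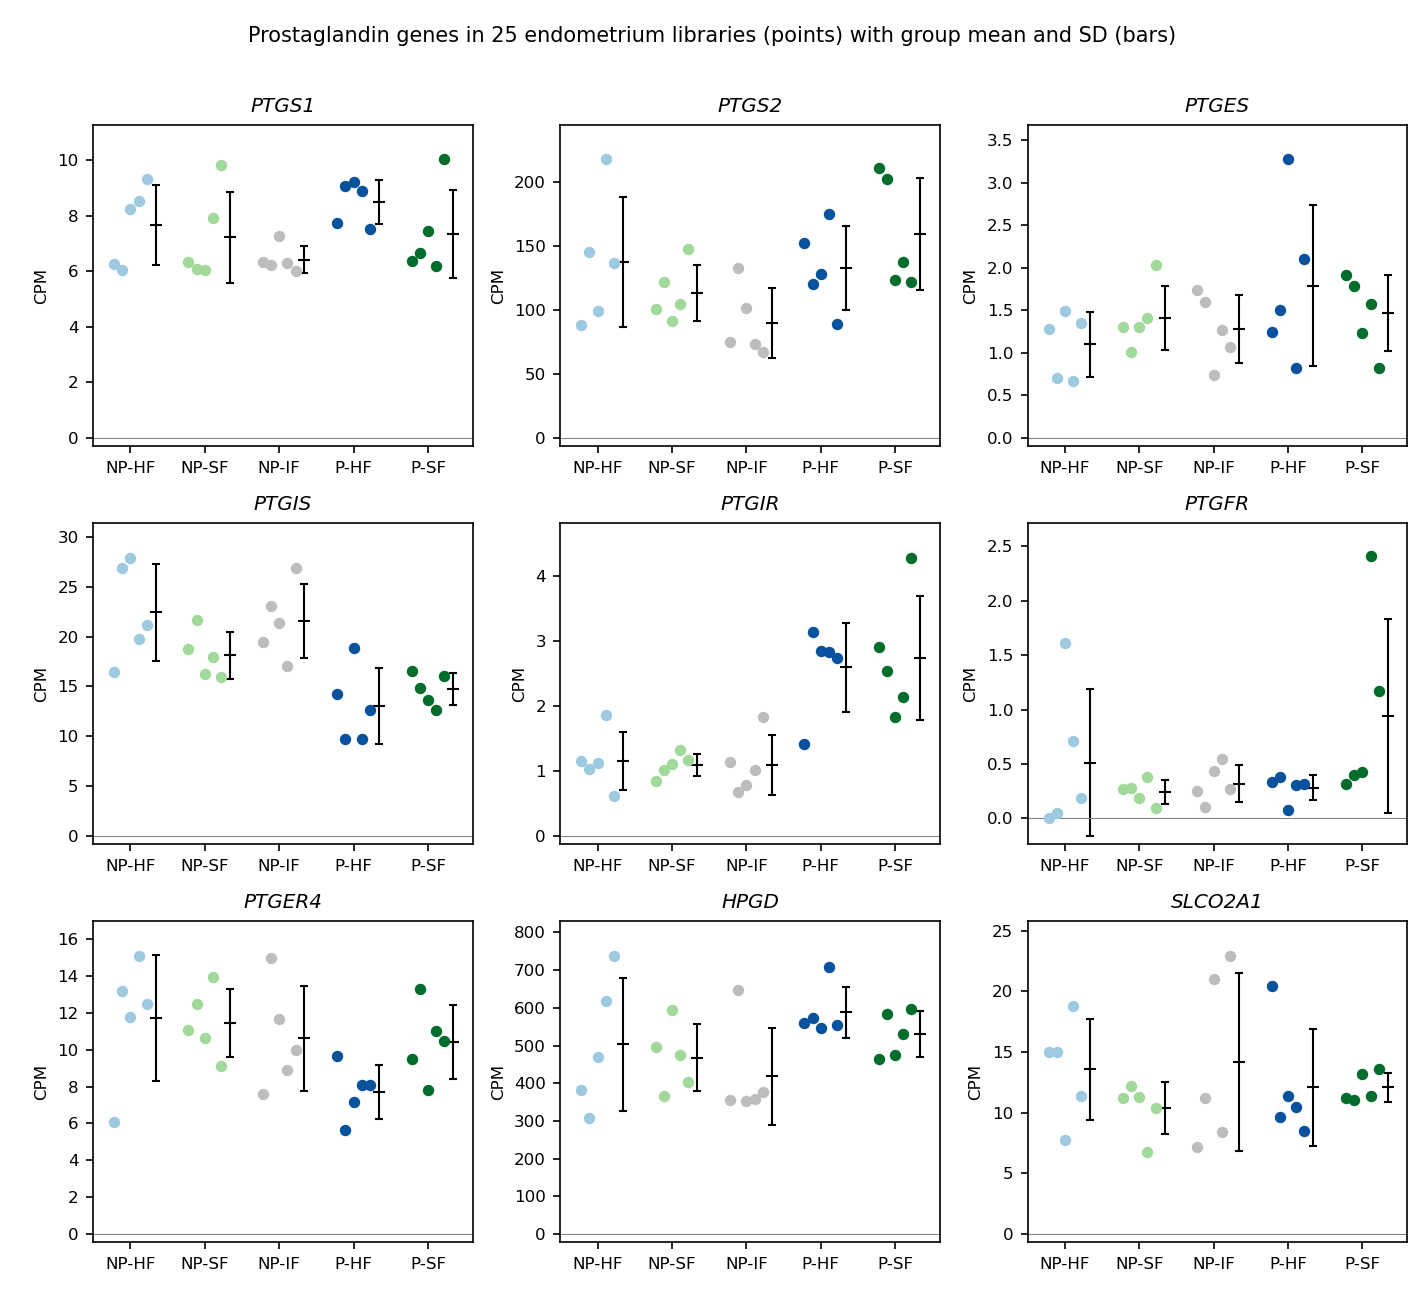
Level of each prostaglandin gene (CPM, linear axis) in the 25 endometrium libraries, 1 point per animal, by group (NP, non-pregnant; P, pregnant; HF, high fertile; SF, subfertile; IF, infertile), with group mean and SD. PTGIR lies between 1.83 and 4.28 CPM in the 5 P-SF animals, above all 5 NP-SF animals, and PTGIS lies below the NP-HF range in 4 of 5 P-HF animals.

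Among the synthesis genes, PTGIS makes prostacyclin, a prostaglandin known for relaxing vessels and for signalling in the uterus. Its level was 16.4, 26.9, 27.9, 19.7 and 21.2 CPM in the NP-HF animals. In the P-HF animals it was 14.3, 9.74, 18.8, 9.75 and 12.6 CPM. The groups overlapped through 1 P-HF animal, at 18.8 CPM, while the other 4 P-HF animals lay below every NP-HF animal. PTGIS fell by 0.78 on the log2 scale (SE 0.17, n = 5 and 5, edgeR adjusted p = 0.0021). This call held in all 15 alternatives tried.

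In subfertile heifers PTGIS was 18.8, 21.7, 16.2, 17.97 and 15.9 CPM without pregnancy and 16.6, 14.8, 13.6, 12.7 and 16.1 CPM with it. Those groups overlapped, and the log2 difference of -0.30 (SE 0.17, edgeR adjusted p = 0.40) did not pass. The difference between the high-fertile and subfertile changes of PTGIS, tested as an interaction, was 0.48 (95% interval -0.01 to 0.98, edgeR adjusted p = 0.74), so the change was not shown to differ between fertility classes.

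PTGS2, the inducible cyclooxygenase, was measured at 137 ± 51.0 CPM in NP-HF and 133 ± 32.6 CPM in P-HF (mean ± SD, n = 5 each). In subfertile heifers it was 113 ± 22.2 CPM in NP-SF and 159 ± 43.8 CPM in P-SF. The subfertile log2 difference was 0.49 (SE 0.24, edgeR adjusted p = 0.29), with 2 of 5 P-SF animals above all NP-SF animals, and did not pass the test.

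PTGS1 is the constitutive cyclooxygenase. Its group means lay between 6.42 CPM in NP-IF and 8.47 CPM in P-HF, and its pregnancy differences were 0.14 (95% interval -0.18 to 0.47) in high-fertile and 0.02 (95% interval -0.31 to 0.35) in subfertile heifers. PTGES, which makes prostaglandin E, was at 1.10 ± 0.384 CPM in NP-HF and 1.79 ± 0.951 CPM in P-HF, with 1 P-HF animal at 3.28 CPM. Its log2 difference of 0.71 (SE 0.34) had an edgeR adjusted p of 0.14, and in subfertile heifers the difference was 0.06 (SE 0.34).

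Among the receptors, PTGIR was called in both fertility classes. Its level was 1.15, 1.04, 1.12, 1.86 and 0.607 CPM in NP-HF and 1.41, 3.14, 2.84, 2.83 and 2.73 CPM in P-HF. One P-HF animal, at 1.41 CPM, lay inside the NP-HF range and the other 4 lay above it. PTGIR rose by 1.16 on the log2 scale (SE 0.30, edgeR adjusted p = 0.0074), and the call held in all 15 alternatives.

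In subfertile heifers PTGIR was 0.852, 1.01, 1.11, 1.32 and 1.16 CPM in NP-SF and 2.91, 2.53, 1.83, 2.13 and 4.28 CPM in P-SF. The 2 groups did not overlap. The rise was 1.32 (SE 0.30, edgeR adjusted p = 0.010), and without the P-SF animal at 4.28 CPM it was 1.10 with an adjusted p of 0.056. The interaction of PTGIR was 0.15 (95% interval -0.72 to 1.02). The level of PTGIR rested on 13 to 88 counts per endometrium library.

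PTGER4, a receptor for prostaglandin E that raises cyclic AMP, was 6.06, 13.2, 11.8, 15.1 and 12.5 CPM in NP-HF. In P-HF it was 9.64, 5.65, 7.14, 8.05 and 8.07 CPM. A single NP-HF animal, at 6.06 CPM, brought the groups into overlap, and 1 P-HF animal lay below all of NP-HF. PTGER4 fell by 0.60 (SE 0.21, edgeR adjusted p = 0.043), but the call was lost in 11 of 15 alternatives, where adjusted p reached 0.12 and the difference stayed between -0.77 and -0.49. In P-SF it was 10.41 ± 2.02 CPM against 11.5 ± 1.84 CPM in NP-SF, a log2 difference of -0.14 (SE 0.21).

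PTGFR, the receptor for prostaglandin F, was near the detection limit in endometrium, with 0 to 52 counts per library. In P-SF it was 0.313, 0.397, 0.426, 2.41 and 1.17 CPM, and in NP-SF 0.269, 0.276, 0.192, 0.384 and 0.0967 CPM. The 2 high P-SF animals set the group mean, and 4 of 5 P-SF animals lay above all NP-SF animals. The log2 difference of 1.92 (SE 0.77, edgeR adjusted p = 0.19) did not pass. In high-fertile heifers the difference was -0.89 (SE 0.78), with NP-HF animals spread from 0 to 1.61 CPM.

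**Figure D2:**
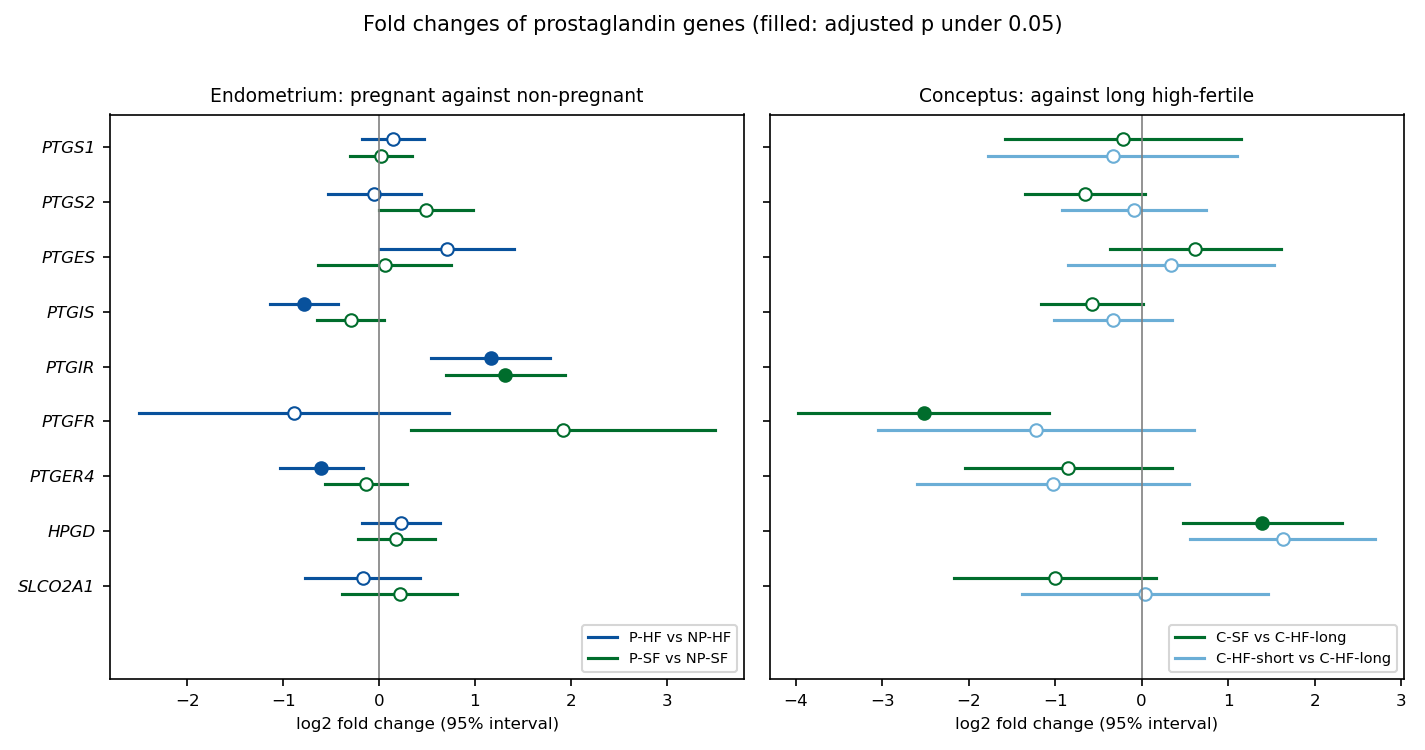
Fold change of each gene on the log2 scale with its 95% interval, in pregnant against non-pregnant endometrium (left) and in conceptuses against the C-HF-long group (right); filled points have an edgeR adjusted p under 0.05. PTGIR is filled in both fertility classes on the left, and PTGFR (-2.52) and HPGD (1.40) are filled for C-SF on the right; PTGIR was not tested in conceptuses.

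HPGD, which oxidises prostaglandins E and F to inactive forms, was high in every endometrium group. It was measured at 503 ± 175 CPM in NP-HF, 467 ± 88.8 CPM in NP-SF, 418 ± 129 CPM in NP-IF, 588 ± 67.3 CPM in P-HF and 530.0 ± 61.1 CPM in P-SF. All groups overlapped, and the pregnancy differences were 0.23 (95% interval -0.18 to 0.63) in high-fertile and 0.18 (95% interval -0.22 to 0.59) in subfertile heifers. SLCO2A1, which carries prostaglandins into cells, was at 13.6 ± 4.18 CPM in NP-HF and 12.1 ± 4.81 CPM in P-HF, and its pregnancy differences were -0.17 (SE 0.29) and, in subfertile heifers, 0.22 (SE 0.29).

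The other genes of the pathway were read from a list of 31 genes (phospholipases, other synthases, receptors, reductases and carriers), of which 30 had a row and 29 were tested in endometrium. In P-HF against NP-HF 5 of the 29 were called higher and 4 lower, with a median of -0.08, where 10.2% and 10.6% of all genes were called in those directions. ANXA1, a calcium-dependent phospholipid-binding protein known to restrain phospholipase A2, rose by 1.72 (SE 0.35, edgeR adjusted p = 0.0010), from 111 ± 27.9 to 366 ± 162 CPM. HPGDS, the haematopoietic prostaglandin D synthase, rose by 1.91 (SE 0.52, edgeR adjusted p = 0.010), from a mean of 0.592 to a mean of 2.22 CPM. It rested on 6 to 19 counts in NP-HF and 12 to 87 in P-HF, and the groups overlapped (0.247 to 0.895 and 0.677 to 3.79 CPM). The organic anion carriers SLCO2B1 and SLCO3A1 rose by 1.04 (SE 0.19) and 0.75 (SE 0.19). PTGFRN, a membrane protein that inhibits binding of prostaglandin F to its receptor, fell by 0.77 (SE 0.11, edgeR adjusted p = 3.2e-05), from 158 ± 22.5 to 93.1 ± 11.5 CPM. PTGDS, the lipocalin-type prostaglandin D synthase, fell by 0.52 (SE 0.12).

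The 3 remaining calls in high-fertile heifers lie outside the rule for naming and are given because their values were seen. CBR1, a carbonyl reductase that can convert prostaglandin E to F, rose by 0.82 (SE 0.24). PTGER3, another prostaglandin E receptor, fell by 1.46 (SE 0.49), and TBXA2R, the thromboxane receptor, fell by 0.89 (SE 0.30). PTGER3 and TBXA2R each lost their call in 6 of 15 alternatives, and CBR1 lost it without the third P-HF animal (0.66, edgeR adjusted p = 0.066). In P-SF against NP-SF 2 of the 29 were called higher and 1 lower, with a median of 0.08, where 3.18% and 0.887% of all genes were called in those directions. ANXA1 rose by 1.51 (SE 0.35) and SLCO2B1 by 0.81 (SE 0.18). PLA2G4B, a cytosolic phospholipase A2, fell by 0.41 (SE 0.12, edgeR adjusted p = 0.048), a call lost in 11 of 15 alternatives. Without the fifth P-SF animal the calls of ANXA1 (0.94, adjusted p = 0.075) and SLCO2B1 (0.66, adjusted p = 0.057) were lost as well.

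Cell type markers moved in the comparison in which PTGIS and PTGER4 fell. Summed stromal markers lay between 5092 and 8451 CPM in P-HF and between 12697 and 24531 CPM in NP-HF, and 4 of 7 were called lower. The collagen gene COL3A1 had the highest mean of the 7 in NP-HF, at 6954 CPM against 1887 CPM in P-HF. Mean PDGFRA went the other way, at 254 CPM in NP-HF and 337 CPM in P-HF, and LUM was at 334 and 293 CPM. Of 6 endothelial markers 2 were called lower, with sums of 299.9 to 535 CPM in P-HF and 443 to 564 CPM in NP-HF. Of 7 immune markers 3 were called higher and 1 lower, with sums of 109 to 153 CPM against 91.4 to 145 CPM. Of 7 epithelial markers 1 was called higher, with sums of 1192 to 1308 CPM against 935 to 1169 CPM, and no smooth muscle marker was called. In P-SF against NP-SF, where PTGIR alone of the 9 genes was called, no stromal or endothelial marker was called, and 1 of 7 epithelial and 1 of 7 immune markers were called higher. The part of cell composition in the values of PTGIS, PTGIR and PTGER4 was not tested.

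Fertility class was compared at matched pregnancy state, and none of the 9 genes was called. That held for P-SF against P-HF, NP-SF against NP-HF, NP-IF against NP-HF and NP-IF against NP-SF, in each of which 0% of the 19606 genes were called. At an unadjusted p under 0.05 edgeR gave 1984, 709, 1070 and 784 genes in those 4 comparisons, and DESeq2 called 97, 4, 2 and 10. None of the 30 listed pathway genes was called in them either. In the interaction of fertility class with pregnancy 0.0051% of all genes were called, which is 1 gene, and it was none of the 9.

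The fertility differences that came with the widest intervals were those of PTGFR. P-SF exceeded P-HF by 1.75 (95% interval 0.16 to 3.33, edgeR adjusted p = 0.46), with P-HF animals at 0.338, 0.377, 0.0789, 0.305 and 0.312 CPM. Here 4 of 5 P-SF animals lay above all P-HF animals. Among these 4, P-SF animals 2 and 3 had only 8 and 10 counts (0.397 and 0.426 CPM), beside 2 to 8 counts in P-HF. The interaction of PTGFR was 2.81 (95% interval 0.54 to 5.08, edgeR adjusted p = 0.65), which also did not pass.

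PTGS2 showed its lowest endometrial levels in infertile heifers, at 75.3, 132, 101, 73.8 and 66.9 CPM. In NP-HF it was 88.2, 145, 99.2, 218 and 137 CPM. Of the 5 NP-IF animals 3 lay below all NP-HF animals and the groups overlapped. The log2 difference of -0.61 (SE 0.24) had an edgeR adjusted p of 0.90 over all genes.

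PTGER4 was higher in P-SF than in P-HF by 0.43 (95% interval 0.00 to 0.86, edgeR adjusted p = 0.50), with 3 of 5 P-SF animals above all P-HF animals. PTGIR differed by 0.08 between P-SF and P-HF (95% interval -0.52 to 0.68). PTGIS, PTGS1, PTGES, HPGD and SLCO2A1 differed by between -0.29 and 0.18 in that comparison. The order of group means was P-SF, P-HF, NP-HF, NP-SF and NP-IF for PTGIR and NP-HF, NP-IF, NP-SF, P-SF and P-HF for PTGIS. No pair of neighbours within one pregnancy state in these orders passed the test.

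For PTGS2, long conceptuses held 3420 ± 1005 CPM (1783 to 4453), short high-fertile conceptuses 3050.4 ± 1934 CPM (771.6 to 6696) and subfertile conceptuses 2115 ± 1035 CPM (650.1 to 3648). PTGIR had counts in 1 of the 27 conceptuses. In the main test, which did not account for shared recipients, PTGFR was called lower and HPGD higher in C-SF than in C-HF-long. The PTGFR call was lost in 9 of 29 alternatives and the HPGD call in 22 of 29. Both were lost with the recipient as a block, with 1 conceptus per recipient and with groups by description. Of the 9 genes 8 passed the filter on low counts in conceptuses. In C-SF against C-HF-long 1 of the 8 was called higher and 1 lower, where 8.9% of the 16330 genes tested were called (3.8% higher and 5.1% lower). That share rested on 1454 genes, which became 0 with groups by description, 424 with the recipient as a block in limma-voom (934 in limma-voom without it), and 286 with 1 conceptus per recipient. Without 1 library they were 629 (C-HF-long conceptus 9), 672 (C-SF conceptus 2), 801 (C-HF-long conceptus 8), 842 (C-SF conceptus 3), 863 (C-HF-long conceptus 6) and 940 (C-HF-long conceptus 2). The median of the 8 genes was -0.61, against 0.03 over all genes tested.

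**Figure D3:**
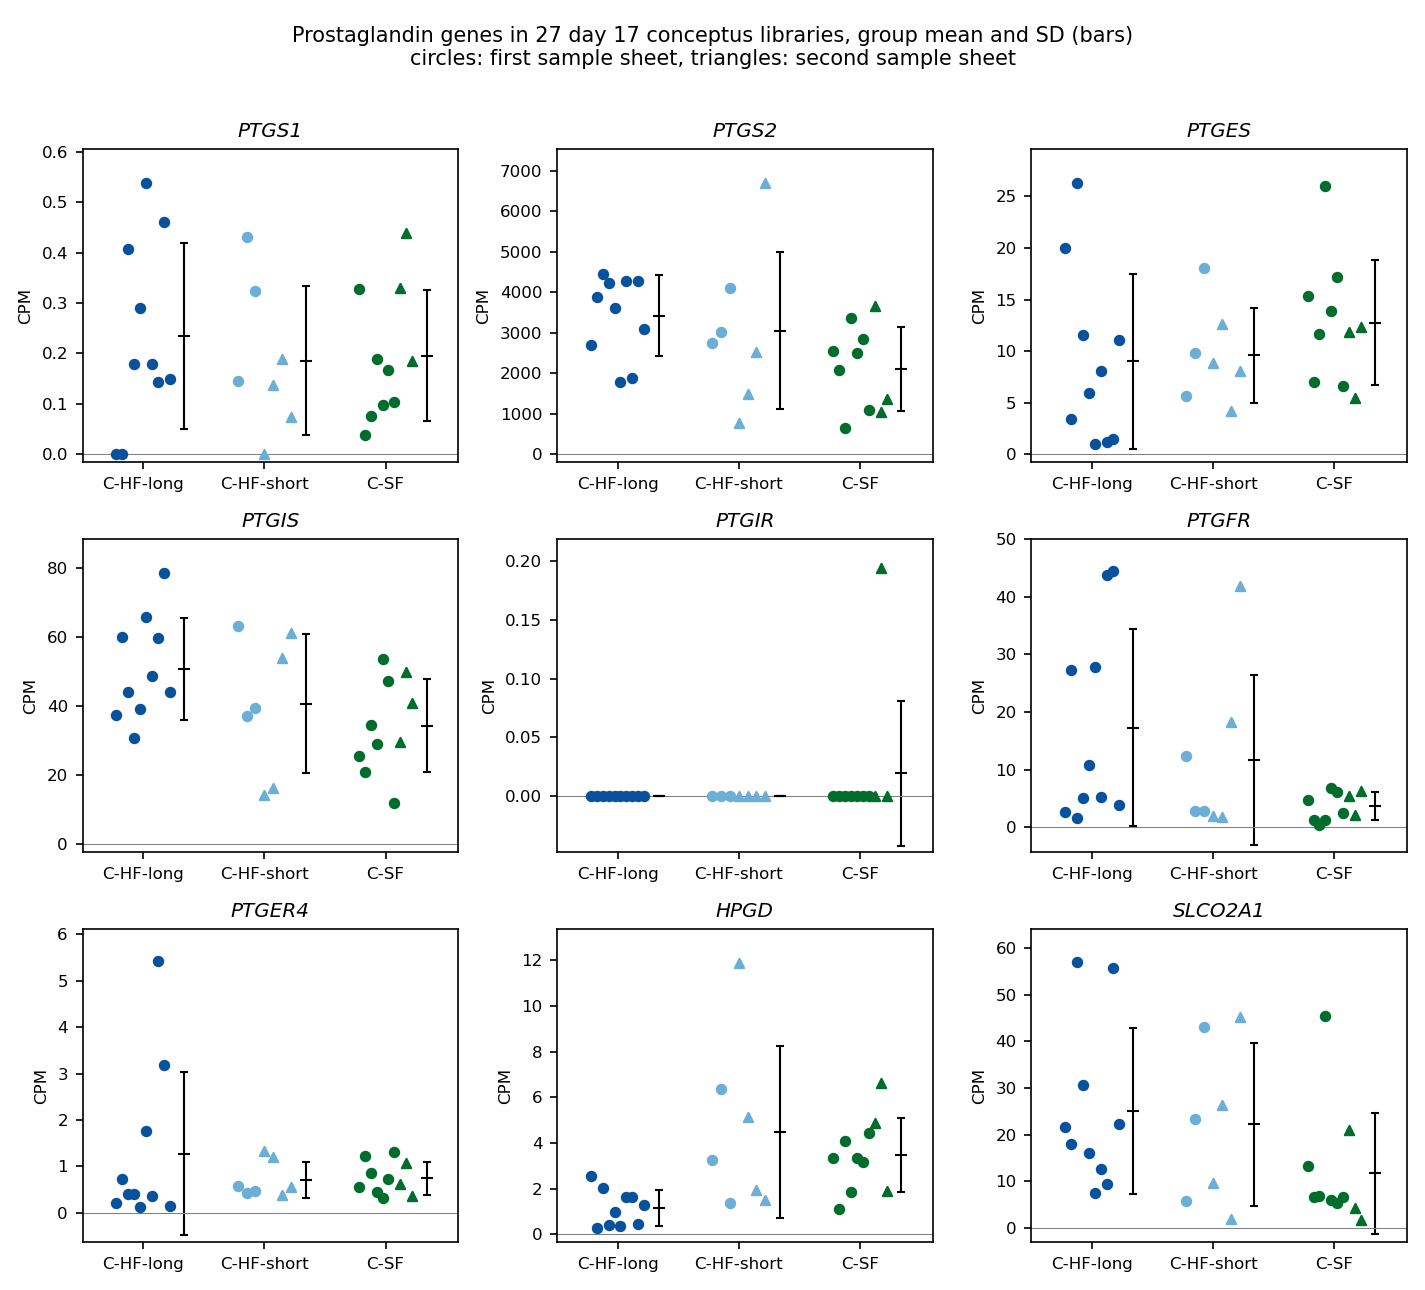
Level of each prostaglandin gene (CPM, linear axis) in the 27 conceptus libraries by group, with group mean and SD. Circles and triangles mark the first and second form of library name, called sample sheets. The form was read from the description matching the library's animal and length. PTGFR reaches 44.5 CPM in C-HF-long but at most 6.75 CPM in C-SF, and HPGD is above the C-HF-long range in 7 of 10 C-SF conceptuses.

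Library names in the descriptions took 2 forms, treated here as 2 sample sheets. The sheet of a library was read from the description that matched its animal and length. For 22 of the 27 conceptuses that was not the library's own description. The second held 3 C-SF and 4 C-HF-short libraries and no C-HF-long library, and the sheet was a term in the model.

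Of the synthesis genes, PTGS2 lay below the C-HF-long median of 3752 CPM in all 10 C-SF conceptuses. The ranges overlapped, with 4 C-SF conceptuses below every C-HF-long conceptus. The log2 difference was -0.65 (SE 0.34, edgeR adjusted p = 0.22) and did not pass. PTGIS, the prostacyclin synthase, was 50.8 ± 14.8 CPM in C-HF-long, 40.7 ± 20.1 CPM in C-HF-short and 34.4 ± 13.52 CPM in C-SF, a difference of -0.57 (SE 0.29, edgeR adjusted p = 0.20) between the first and the last. PTGES varied widely within C-HF-long, from 1.04 to 26.3 CPM, and was 12.7 ± 6.06 CPM in C-SF, a difference of 0.62 (SE 0.48). PTGS1 was at 0 to 18 counts per conceptus library, at most 0.538 CPM.

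PTGFR was the receptor with the clearest signal in conceptuses. Its lowest, median and highest levels were 1.57, 8.06 and 44.5 CPM in C-HF-long. They were 1.83, 2.86 and 41.9 CPM in C-HF-short and 0.378, 3.575 and 6.75 CPM in C-SF. All 10 C-SF conceptuses lay below the C-HF-long median, and the ranges overlapped because 5 C-HF-long conceptuses lay between 1.57 and 5.29 CPM.

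PTGFR fell by 2.52 in C-SF against C-HF-long (SE 0.71, n = 10 and 10, edgeR adjusted p = 0.028). The call was lost in 9 of 29 alternatives, among them limma-voom without a block (-1.91, adjusted p = 0.16). With the recipient as a block in limma-voom the difference was -1.81 (adjusted p = 0.22), and with 1 conceptus per recipient it was -2.30 (adjusted p = 0.13). With groups read from the descriptions it was -1.24 (adjusted p = 0.58), and within the first sample sheet alone it was -2.42 (adjusted p = 0.051). Leaving out C-HF-long conceptus 8 or 9, the ones at 43.9 and 44.5 CPM, gave -2.25 and -2.24 with adjusted p of 0.058 and 0.064, and leaving out C-SF conceptus 2 or 3 gave adjusted p of 0.058 and 0.052. Against C-HF-short the difference was -1.30 (SE 0.76, edgeR adjusted p = 0.65).

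The prostaglandin E receptor PTGER4 was low in conceptuses, between 0.129 and 5.44 CPM, and its C-SF difference from C-HF-long was -0.85 (SE 0.58, edgeR adjusted p = 0.36). Both conceptuses above 3 CPM were C-HF-long. The medians went the other way, at 0.670 CPM in C-SF and 0.405 CPM in C-HF-long. PTGIR had no count in 26 of 27 conceptuses. The remaining one, C-SF conceptus 9, had 8 counts (0.195 CPM). For C-HF-long, a count of 0 in all 10 libraries allows up to 0.0101 CPM, from 3 counts over the group and for counting error only.

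HPGD had lowest, median and highest levels of 0.265, 1.12 and 2.54 CPM in C-HF-long. In C-SF they were 1.12, 3.35 and 6.62 CPM and in C-HF-short 1.36, 3.24 and 11.9 CPM. Of the C-SF conceptuses 7 of 10 lay above every C-HF-long conceptus, as did 4 of 7 C-HF-short conceptuses. HPGD rose by 1.40 in C-SF against C-HF-long (SE 0.45, edgeR adjusted p = 0.0498), at the threshold. The call was lost in 22 of 29 alternatives. With the recipient as a block it was 1.504 (adjusted p = 0.099), with 1 conceptus per recipient 1.45 (adjusted p = 0.089), within the first sheet 1.39 (adjusted p = 0.054), and with groups from the descriptions 0.20 (adjusted p = 0.93).

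In C-HF-short against C-HF-long the HPGD difference was 1.63 (SE 0.52, unadjusted p = 0.0043), with an edgeR adjusted p of 0.93 where 0% of all genes were called. C-SF and C-HF-short differed in HPGD by -0.23 (95% interval -1.20 to 0.74). In C-SF against C-HF-short 0.00612% of all genes were called, which is 1 gene, and it was none of the 9. At an unadjusted p under 0.05 edgeR gave 599 genes for C-HF-short against C-HF-long, and DESeq2 called 2.

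SLCO2A1, the prostaglandin carrier, was 25.1 ± 17.8 CPM in C-HF-long, 22.2 ± 17.4 CPM in C-HF-short and 11.66 ± 13.1 CPM in C-SF. Of the C-SF conceptuses 7 of 10 lay below every C-HF-long conceptus, and 1 stood at 45.5 CPM. The difference from C-HF-long was -1.01 (SE 0.57, edgeR adjusted p = 0.26) and did not pass. None of the 18 listed pathway genes tested in conceptuses was called in any of the 3 group comparisons. The 6 smallest p in C-SF against C-HF-long were those of CBR1 (0.88, SE 0.31), AKR1B1 (-0.76, SE 0.33), PLA2G12A (0.46, SE 0.21), ANXA1 (0.93, SE 0.45), SLCO2B1 (-0.68, SE 0.34) and PTGR2 (0.28, SE 0.17), with edgeR adjusted p from 0.073 to 0.31. AKR1B1, a reductase known as a prostaglandin F synthase in cattle, was at 2877 ± 1391 CPM in C-HF-long and 1537 ± 619 CPM in C-SF.

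The share of HPGD and the uterine markers in conceptus libraries are given together. HPGD in conceptuses was 0.0473 to 0.455% of the pregnant endometrial mean in C-HF-long, 0.243 to 2.12% in C-HF-short and 0.200 to 1.18% in C-SF. The summed uterine markers PGR, ESR1, HOXA10, HOXA11 and OXTR were 0 to 1.77 CPM in C-HF-long, 0 to 2.12 CPM in C-HF-short and 0.0521 to 19.5 CPM in C-SF. As percents of their pregnant endometrial mean, the marker sums had medians of 0.18% in C-HF-long, 0.335% in C-HF-short and 0.452% in C-SF. The HPGD medians on that scale were 0.200, 0.579 and 0.599% in the same order. The marker sum reached 12.02% in C-SF conceptus 9. Without C-SF conceptus 9 the C-SF maximum of the marker sum was 7.24 CPM, and the HPGD difference was 1.33 (adjusted p = 0.061). Summed stromal markers were 5.11 to 66.9 CPM in C-HF-long and 2.70 to 108 CPM in C-SF. Of the 7 stromal markers 3 were called lower, and the log2 differences ran from -3.16 to 1.11. Summed trophoblast markers were 6507 to 13316 CPM in C-HF-long and 1882 to 10547 CPM in C-SF, with 1 of 5 tested called lower. Of the 5 uterine markers 1 was tested, and it was called higher in C-SF than in C-HF-long (3.25). OXTR reached 17.9 CPM in C-SF, where HOXA10 and HOXA11 reached at most 0.195 and 0.0973 CPM. Of 5 endothelial markers tested 1 was called higher in the same comparison. The part of these tissues in the levels of PTGFR and HPGD was not tested.

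Conceptus length was examined in the 20 conceptuses with a stated length, as a slope per doubling of length with the sample sheet in the model. None of the 8 genes tested was called, and 0% of 16769 genes were (1878 at an unadjusted p under 0.05). HPGD had a slope of -0.47 (95% interval -0.95 to 0.01, edgeR adjusted p = 0.45) and PTGFR one of 0.74 (95% interval -0.09 to 1.56, edgeR adjusted p = 0.47). Length went with group, the C-HF-long conceptuses being the long ones by class. With group as a covariate the slopes were -0.26 for HPGD and 0.33 for PTGFR. The PTGFR slope was 0.02 without the sample sheet and 0.08 with the recipient as a block in limma-voom. The slopes of PTGS2 and PTGIS were 0.12 (SE 0.26) and 0.29 (SE 0.17).

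In 8 uteri 2 conceptuses of stated length were sequenced, which compares lengths within a recipient. In 3 of the 8 pairs the shorter conceptus was on the second sample sheet and the longer on the first, so that length and sheet cannot be told apart within them. HPGD was lower in the longer conceptus of 7 of the 8 pairs. In 3 of these the difference exceeded 1 on the log2 scale. HPGD there went from 11.9 to 5.12, from 6.36 to 2.01 and from 1.36 to 0.403 CPM. The exception was a C-SF pair, at 1.86 CPM in the shorter conceptus and 4.08 CPM in the longer. Its shorter conceptus was 4 cm long, as in the other C-SF pairs. Its longer conceptus lay in the C-HF-long length range, as in no other C-SF pair. With the recipient as a block the difference was -0.54 (SE 0.29, edgeR adjusted p = 0.95), where 0% of 15337 genes were called (715 at an unadjusted p under 0.05). In the pairs with both conceptuses on the first sheet it was -0.51.

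PTGFR was lower in the longer conceptus of 6 of the 8 pairs, with a difference of -0.39 (95% interval -1.32 to 0.54). In the pairs with both conceptuses on the first sheet it was -0.32. Its largest gap was in the pair whose shorter conceptus was 1.3 cm long, at 41.9 CPM in the shorter and 3.78 CPM in the longer, and without that pair the PTGFR difference was -0.0091. Without the uterus as a block it was 0.91. In a pair of 2.8 and 17 cm it was 18.3 and 43.9 CPM. PTGS2 was higher in the longer conceptus of 4 pairs and lower in the other 4, with a difference of -0.30 (SE 0.30).

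**Figure D4:**
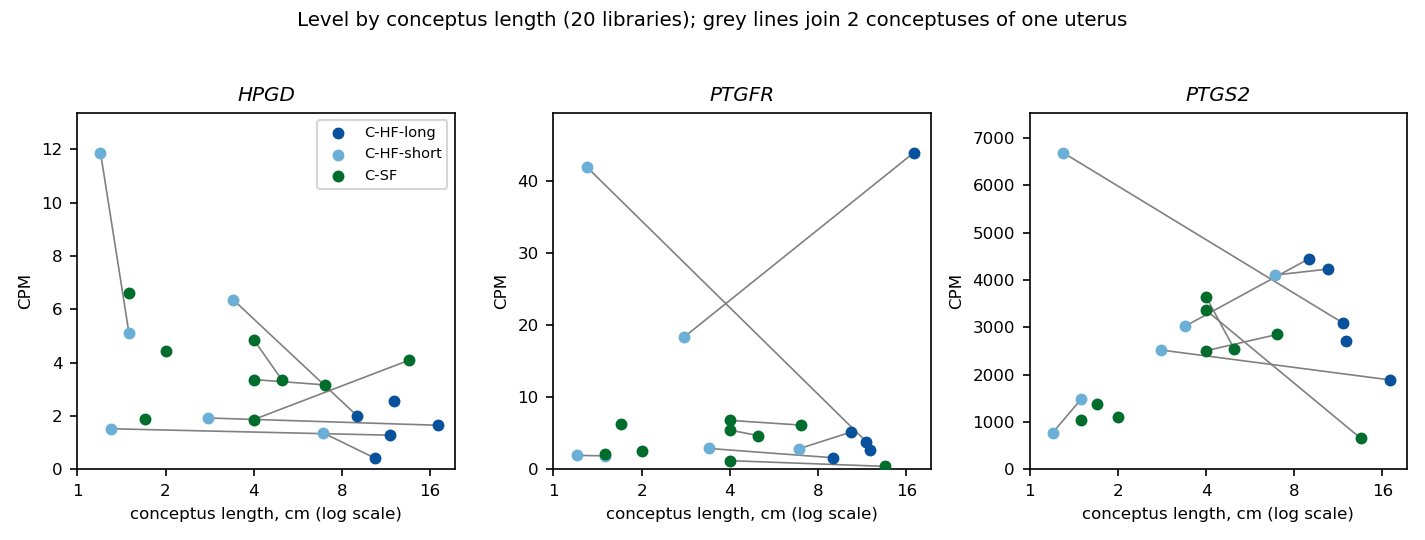
Level (CPM, linear axis) of HPGD, PTGFR and PTGS2 against conceptus length (cm, log axis) in the 20 conceptuses with a stated length, coloured by group; grey lines join 2 conceptuses of one uterus. The line for HPGD runs down towards the longer conceptus in 7 of 8 pairs, and that for PTGS2 in 4 of 8.

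Endometrium and conceptus RNA was extracted with different reagents, so the 2 tissues were set side by side without a test. Mean PTGS2 was 2841 CPM over the 27 conceptuses and 146 CPM over the 10 pregnant endometria, and the lowest conceptus, at 650.1 CPM, lay above the highest endometrium, at 211 CPM. In the 8 recipients with both tissues, PTGS2 was 88.9 to 211 CPM in the endometrium and 650.1 to 6696 CPM in their 12 conceptuses. PTGFR (10.8 against 0.613 CPM), PTGES (10.5 against 1.63 CPM) and PTGIS (42.1 against 13.9 CPM) also had higher means in the conceptuses, with overlapping ranges.

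HPGD had a mean of 559 CPM in pregnant endometrium and 2.88 CPM in conceptuses, and its ranges of 463 to 708 and 0.265 to 11.9 CPM did not overlap. PTGS1 was at 7.90 against 0.208 CPM, PTGER4 at 9.06 against 0.935 CPM and PTGIR at 2.66 against 0.00721 CPM. For each of these 3 genes every pregnant endometrium lay above every conceptus. The share of all genes that part the 2 tissues without overlap was not computed. Such gaps, also those of PTGS2 and HPGD, are therefore not shown to be particular to these genes. SLCO2A1 was at 12.1 CPM in pregnant endometrium and 19.4 CPM in conceptuses, with the endometrial range of 8.49 to 20.5 CPM inside the conceptus range of 1.69 to 57.0 CPM.

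**Figure D5:**
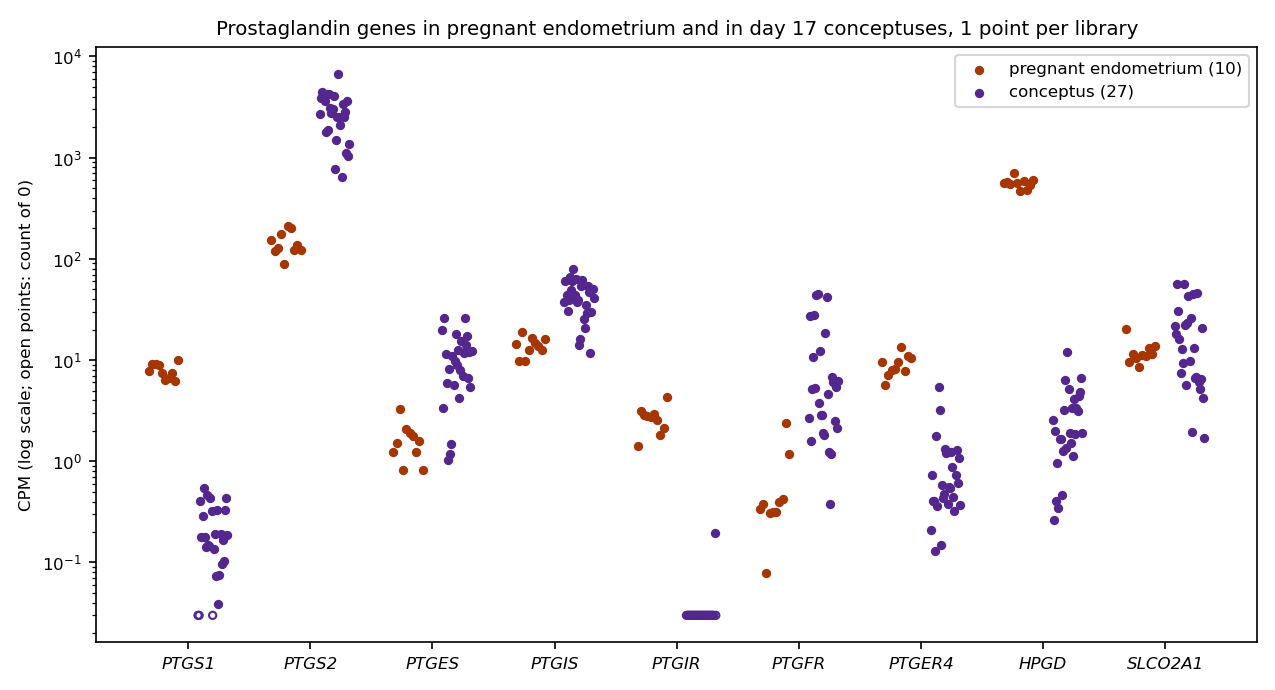
Level of each prostaglandin gene (CPM, log axis) in the 10 pregnant endometrium libraries and the 27 conceptus libraries, 1 point per library; open points at the bottom have a count of 0. PTGS2 in every conceptus lies above every pregnant endometrium, and HPGD, PTGS1, PTGER4 and PTGIR in every conceptus lie below it. The share of all genes that part the tissues in this way was not computed.

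The genes most like a called gene were taken by Pearson correlation of log2(CPM + 1) over all libraries of the tissue, as a description of libraries that share groups and depth. Over the 25 endometrium libraries these were TAPBP, CASP4 and PSME1 for PTGIR (r = 0.93 each), PPP2R2B (r = 0.82), LOC100337325 (r = 0.79) and LOC101904498 (r = 0.79) for PTGIS, and TNIK (r = 0.76), EQTN (r = 0.76) and HOXD8 (r = 0.75) for PTGER4. Over the 27 conceptus libraries they were TRIM36 (r = 0.95), HOXC13 (r = 0.94) and DOCK8 (r = 0.94) for PTGFR, and MYO10, GJA1 and APOBEC1 (r = 0.78 each) for HPGD.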

How the data were processed

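The authors deposited unnormalized read counts per gene for 52 libraries in 1 table of 31651 named genes; 1020 empty lines were left out. Libraries were made with a stranded mRNA kit, per the labels' protocols. HISAT2, StringTie, edgeR and the build UMD3.1 are named in the submitters' processing notes, with versions and strand settings not given in the sources used here. Symbols of the 9 genes matched the ARS-UCD2.0 gene table, which was used for names only.

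Genes were filtered with filterByExpr (minimum count 10, minimum total 15) and scaled by TMM. Tests were edgeR 4.0.16 quasi-likelihood fits in R 4.3.3 with Benjamini-Hochberg adjustment: 25 endometrium libraries in 5 groups (19606 genes), 27 conceptus libraries in 3 groups with the sample sheet (16330 genes), the slope on log2 length (20 libraries, 16769 genes) and pairs within a uterus (15337 genes). SE is the log2 fold change divided by the square root of F. Replicate numbers were given in accession order and pair no samples. Conceptuses of a recipient correlated at 0.30 in the 3-group fit. Alternatives used limma 3.58.1 and DESeq2 1.42.0, and the tests were also run on simulated counts. The simulated libraries were drawn independently of each other. Those runs therefore cannot show how the tests behave for conceptuses that share a recipient.

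The 9 genes and the pathway and marker lists were chosen with earlier results of these data known. All 9 were described in every comparison, up to 6 other pathway genes per comparison were named by smallest p, and 3 genes by likeness to each called gene. Leaving out each C-SF or C-HF-long conceptus, and both conceptuses of the recipient with the lowest trophoblast sums, was added after the data were seen.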

Additional observations from a re-analysis of the deposited data

Results flagged for a closer look

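In 9 of 70 groups of libraries tested for the 9 genes, 1 library stood apart from the rest. For normally distributed values chance gives about 1 group in 20. Some of these groups hold low counts or skewed levels, for which that rate need not hold, so the 9 are not shown to be an excess. In NP-IF, PTGS1 was 7.27 CPM in animal 3 and 5.99 to 6.31 CPM in the others, and HPGD was 649 CPM in animal 2 and 353 to 376 CPM in the others. In P-HF, PTGIR was 1.41 CPM in animal 1 (2.73 to 3.14 in the others), PTGFR was 0.0789 CPM in animal 3 (0.305 to 0.377), HPGD was 708 CPM in animal 4 (547 to 573) and SLCO2A1 was 20.5 CPM in animal 1 (8.49 to 11.4). In C-HF-short, PTGFR was 41.9 CPM in conceptus 7 and 1.83 to 18.3 CPM in the others. In C-SF, PTGIR was 0.195 CPM in conceptus 9 and 0 in the other 9, and SLCO2A1 was 45.5 CPM in conceptus 4 and 1.69 to 20.9 CPM in the others.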

How the results depend on the processing

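Of 1516 values of 102 single-gene results under alternatives, 1368 kept direction and side of the threshold, 43 lost a call, none gained a call or reversed one, and 105 changed sign without a call in either. Counts of genes moved as follows. With DESeq2 they were 1212 in P-SF against NP-SF, 97 in P-SF against P-HF, 4 in NP-SF against NP-HF, 2 in NP-IF against NP-HF, 10 in NP-IF against NP-SF, 3 in the interaction, 2217 in C-SF against C-HF-long, 125 in C-SF against C-HF-short and 2 in C-HF-short against C-HF-long. The interaction gave 0 genes without the low-count filter, with limma-voom and with only the groups compared. Limma-voom gave 934 genes in C-SF against C-HF-long, and with the recipient as a replicate block it gave 424, and 0 in C-SF against C-HF-short. With 1 conceptus per recipient those were 286 and 0, with 3 in C-HF-short against C-HF-long, and with groups by description 0 and 0. C-SF against C-HF-short gave 13 genes with RLE size factors, 19 without the sample sheet and 0 in the first sheet only. The length slope gave 377 genes without the sheet. Leaving out 1 library gave 425 (without P-SF animal 5) to 845 genes in P-SF against NP-SF, 3119 to 4400 in P-HF against NP-HF, 0 to 116 in P-SF against P-HF (116 without P-SF animal 5), 0 to 1 in NP-IF against NP-HF and in the interaction, and 629 (without C-HF-long conceptus 9) to 2110 in C-SF against C-HF-long. The causes were not tested. For the endometrium groups, no paired analysis was possible because they share no animals and the labels give them no replicate numbers. Conceptuses were paired within a uterus. PTGIR, PTGES, PTGFR, HPGDS, PTGER3 and TBXA2R in endometrium and PTGS1, PTGER4 and HPGD in conceptuses rest on low counts in many libraries, which limits their precision.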

Other observations

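In the 27 conceptuses the receptor PTGFR and the synthase PTGES varied in opposite directions. The 3 C-HF-long conceptuses with the most PTGFR, at 44.5, 43.9 and 27.9 CPM, held PTGES at 1.49, 1.18 and 1.04 CPM. Those are the 3 lowest PTGES values of C-HF-long. C-HF-short conceptus 7 did not share this pattern. Its PTGFR was 41.9 CPM and its PTGES 8.05 CPM, near the C-HF-short median of 8.83 CPM. As a description over 27 libraries from 19 recipients, Pearson's r of log2(CPM + 1) between PTGFR and PTGES was -0.73 and Spearman's rho was -0.58. PTGIS, the prostacyclin synthase, went with PTGFR (r = 0.68, rho = 0.76), and PTGS2 went with the carrier SLCO2A1 (r = 0.62, rho = 0.68). These pairs share libraries, depth and groups, and they were chosen after their values were seen.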
